A study of Saccharomyces cerevisiae with 16 samples.

Results

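The phosphate regulon genes described here are PHO84, PHO89, SPL2, PHO81, PHO5, PHO8, VTC1, VTC3 and VTC4. They were chosen by name for their place in the phosphate-responsive (PHO) pathway, with earlier results of these data known. They are 9 of the 7126 annotated genes of Saccharomyces cerevisiae in the data. Messenger RNA was sequenced from hda1Δ cells (strain YTK113), in which HDA1, for the deacetylase subunit of the Hda1 complex (Hda1C), is deleted, and from wild-type cells (strain YSB787), with 1 strain per genotype. Both were grown in synthetic complete medium with raffinose (Ra-0), given galactose for 15, 30 and 120 min (Gal-15, Gal-30, Gal-120), then glucose for 30 and 120 min (Glu-30, Glu-120), and then galactose again for 15 and 30 min (Gal-15-1, Gal-30-1). The labels describe no change in phosphate supply. A single library was sequenced per genotype and stage (n = 1), which gives 16 libraries and no replicates. No test of a difference was therefore possible, and the 8 stages of a genotype are not replicates of each other.

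Yeast senses phosphate through a cyclin and kinase pair, Pho80 and Pho85. When phosphate is plentiful the kinase phosphorylates the activator Pho4 and keeps it out of the nucleus. When phosphate runs short the inhibitor Pho81 blocks the kinase, and Pho4, together with Pho2, switches on genes for phosphate uptake, for phosphatases that free phosphate, and for polyphosphate stores in the vacuole. PHO5 is a classic model of a promoter whose nucleosomes are acetylated and removed on activation.

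Pho4 binds the core letters CACGTG and, more weakly, CACGTT. Because these letters are what the genes share by their known control, the 500 bases before each open reading frame (ORF) were searched for them on both strands. CACGTG reads the same on both strands, CACGTT reads AACGTG on the other strand, and the 2 searches do not overlap. The stretches below, read from the RefSeq R64 genome 5′ to 3′ on the strand of the gene given in brackets, are shown for the 3 members that passed the fold rule described further on and for PHO5, PHO8 and VTC4, which did not. Capitals mark the matches, and a match of SPL2 farther from the ORF lies outside its stretch.
PHO84 chrXIII:26037-26256 (-): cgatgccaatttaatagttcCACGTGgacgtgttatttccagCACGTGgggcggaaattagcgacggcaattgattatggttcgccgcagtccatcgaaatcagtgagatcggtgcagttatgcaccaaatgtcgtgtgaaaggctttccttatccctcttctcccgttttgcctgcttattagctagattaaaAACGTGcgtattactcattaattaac
PHO89 chrII:798820-799005 (-): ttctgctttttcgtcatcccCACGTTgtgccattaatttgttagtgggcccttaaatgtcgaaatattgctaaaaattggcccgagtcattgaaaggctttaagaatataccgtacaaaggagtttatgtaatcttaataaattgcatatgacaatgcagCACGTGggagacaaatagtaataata
SPL2 chrVIII:375106-375267 (-): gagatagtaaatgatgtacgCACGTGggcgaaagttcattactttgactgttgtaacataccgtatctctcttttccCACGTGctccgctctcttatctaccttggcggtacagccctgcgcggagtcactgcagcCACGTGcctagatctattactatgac
PHO5 chrII:431179-431333 (-): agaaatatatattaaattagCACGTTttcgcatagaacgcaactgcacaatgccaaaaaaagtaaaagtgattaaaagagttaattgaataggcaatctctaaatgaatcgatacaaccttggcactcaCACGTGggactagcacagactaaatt
PHO8 chrIV:1420605-1420650 (-): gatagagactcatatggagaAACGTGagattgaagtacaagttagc
VTC4 chrX:413487-413544 (-): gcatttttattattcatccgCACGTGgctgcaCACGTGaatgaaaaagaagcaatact

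All 9 members held CACGTG or CACGTT in that window, against 20.6% of 6680 promoters. CACGTG was found before 8 of the 9 (5.99% of promoters), with PHO8 the exception, and CACGTT before 6 (15.9%). SPL2 held 4 copies of CACGTG, PHO84, VTC3 and VTC4 held 2, and PHO5, PHO89, PHO81 and VTC1 held 1. Of the 20 matches, 4 lay inside a neighbouring annotated ORF, namely the 3 of PHO84, inside YML122C, and that of PHO8, inside CWC21. A match is a stretch of letters and not a measured binding site. Over the genome, the 355 tested ORFs with CACGTG were past the fold rule, on the higher side in hda1Δ, in 1.97 to 8.45% of cases per stage, against 3.32 to 9.35% of all tested ORFs.

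**Figure D1:**
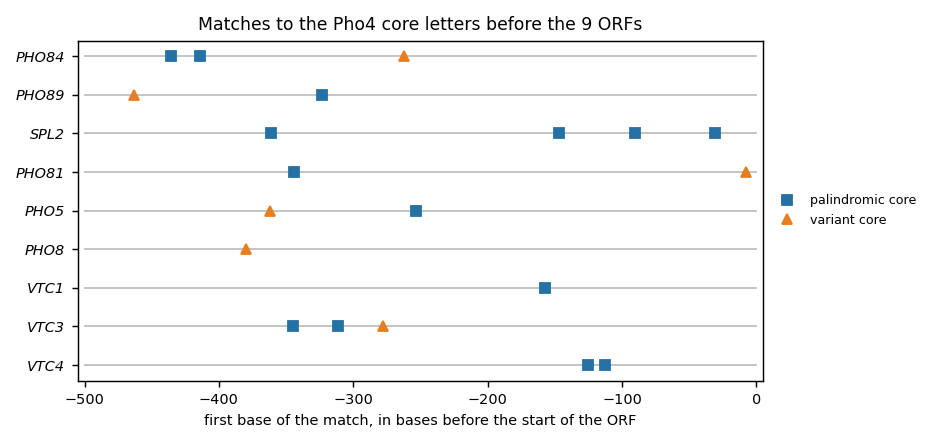
Positions of the core letters in the 500 bases before each of the 9 ORFs, drawn as the first base of each match in bases before the ORF start. Squares mark the palindromic core (14 matches) and triangles the variant core (6 matches). SPL2 carries 4 squares and PHO8 none.

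Levels are FPKM, fragments per kilobase of gene scaled to library size, as the authors computed it, and can be compared between genes because they are per length. The libraries held 1.89 to 2.80 Gb of aligned sequence, or 9.37 to 13.8 M fragments, which sets a floor of 3 fragments at 0.217 to 0.320 FPKM for a gene of 1 kb. RNA genes took 8.88 to 15.7% of gene bases, with hda1Δ Gal-120 (15.7% against 10.2% in wild type) and hda1Δ Gal-15-1 (14.7% against 11.7%) differing most from their wild-type partners. HDA1 held 0 to 4 fragments in hda1Δ libraries and 537 to 1076 in wild-type libraries, which fits the labels. GAL1 was read as a check of the sugar. In wild type it was at 2.98 FPKM in raffinose, 4.15, 10.7 and 45.2 in galactose, then 225 and 46.6 in glucose. In hda1Δ it was at 2.76, then 8.16, 36.7 and 291, then 759 and 65.8 at these stages. The second pulse gave 524 and 1347 in wild type and 1314 and 3147 in hda1Δ. In both genotypes GAL1 was thus higher at 30 min of glucose than throughout the first pulse. The reason was not tested. Summed a-specific genes were at 2414 to 5164 FPKM in hda1Δ and 3047 to 4320 in wild type, and α-specific genes at 37.2 to 83.8 and 30.6 to 50.9 FPKM in hda1Δ and wild type. SAG1 made up most of the α sum, with a mean of 53.2 FPKM in hda1Δ and 38.6 in wild type. MF(ALPHA)1 was at 4.30 and 1.59 and MF(ALPHA)2 at 1.46 and 0.788 in hda1Δ and wild type. STE3 went the other way, at 0.539 in hda1Δ and 1.67 in wild type. In such bulk RNA, a difference in level cannot be told apart from a difference in the share of cells that carry the message.

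The members spanned more than 100-fold in level. Averaged over 16 libraries, VTC1 stood at 114 FPKM, PHO8 at 75.4, VTC4 at 70.6, VTC3 at 31.8, PHO81 at 14.8 and PHO5 at 10.2. PHO89 (5.25) and SPL2 (4.96) were low, and PHO84 (0.990) was near the floor. Over the 16 libraries the ranges of neighbours in this order overlapped, except between VTC4 and VTC3 and between VTC3 and PHO81.

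**Figure D2:**
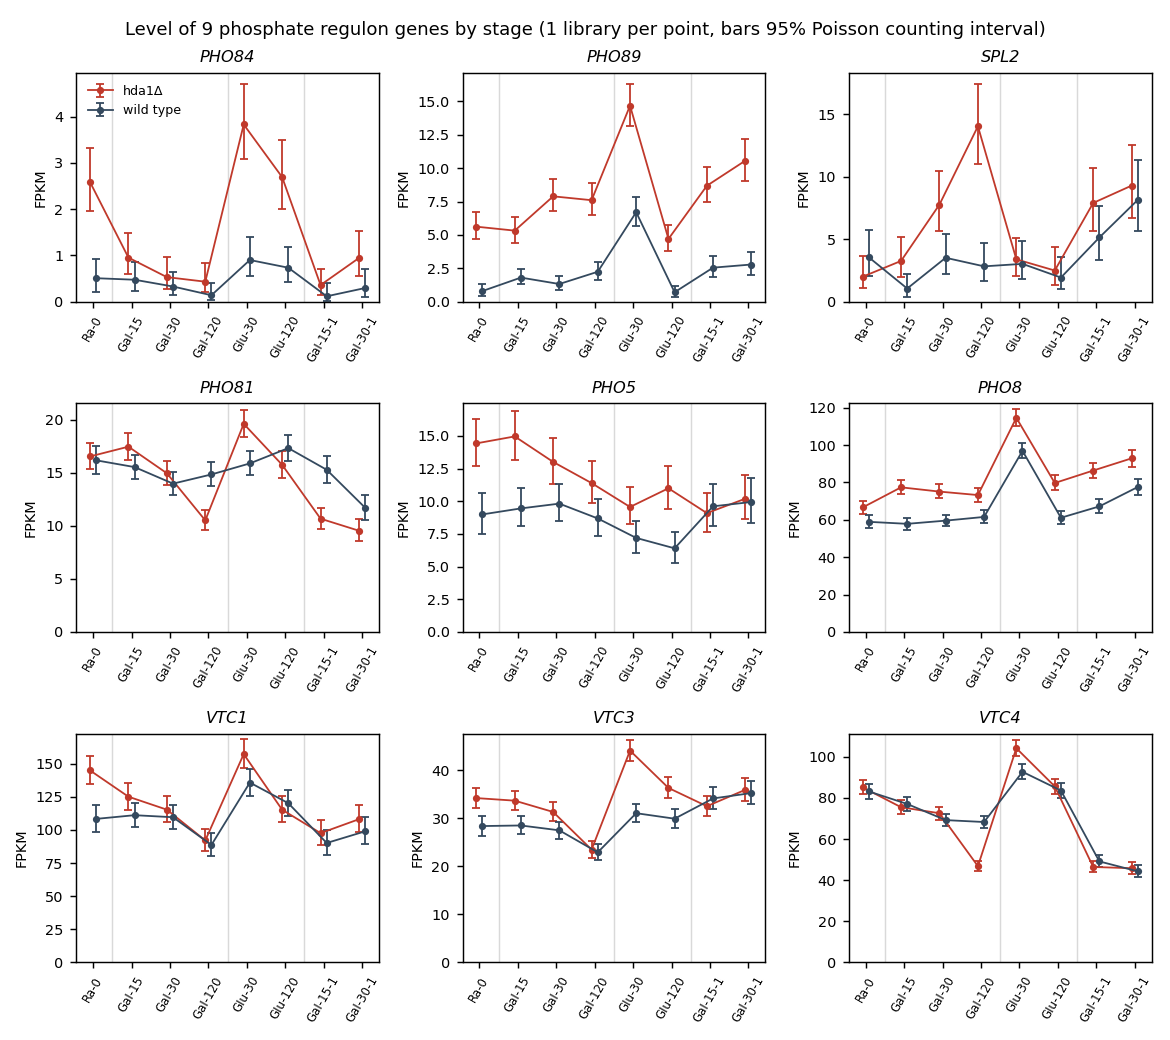
FPKM (y axis, from 0) of the 9 genes at the 8 stages (x axis) in hda1Δ (red) and wild type (dark blue), 1 library per point, with 95% Poisson intervals for counting error only. Grey lines mark the changes of sugar. PHO89 in hda1Δ lay above wild type at all 8 stages, whereas VTC4 differed most at Gal-120, at 46.8 in hda1Δ and 68.3 in wild type.

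Of the 9 genes, only PHO89 passed the fold rule, defined below, at all 8 stages. It encodes the sodium-coupled high-affinity phosphate transporter (YBR296C, chrII:796798-798522). In hda1Δ it stood at 5.62 FPKM in raffinose, 5.33, 7.89 and 7.60 at 15, 30 and 120 min of galactose, 14.7 and 4.70 at 30 and 120 min of glucose, and 8.69 and 10.6 in the second galactose pulse. In wild type the levels at the same stages were 0.803, then 1.81, 1.33 and 2.25, then 6.70 and 0.712, then 2.55 and 2.79. All 8 hda1Δ libraries were above the wild-type library of their stage, and the groups overlapped only through the wild-type level of 6.70 at 30 min of glucose. Folds are the ratio of FPKM plus 1 in hda1Δ to FPKM plus 1 in wild type, with 1.7-fold or more called higher and 0.588-fold or less called lower, as thresholds of size. Intervals in brackets are 95% exact binomial intervals for counting error only. PHO89 was 3.67-fold in raffinose (2.70 to 4.71), 2.25-, 3.82- and 2.65-fold in the first galactose pulse, 2.04- and 3.33-fold during glucose, and 2.73- and 3.05-fold once galactose returned. It passed the rule at all 8 stages, which 57 of 5881 tested ORFs did (0.969%). The lowest fold, 2.04 (1.71 to 2.43) at 30 min of glucose, fell where both genotypes had their highest level. With 5 FPKM added in place of 1, it passed at 5 stages, and not at 15 min of galactose or in glucose. The convergent neighbour PCA1, 298 bases away, stayed between 0.715- and 1.55-fold, and no member overlapped another gene.

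PHO84, encoding the proton-coupled high-affinity transporter that carries most uptake under phosphate shortage (YML123C, chrXIII:24037-25800), passed the rule in raffinose and glucose, on the higher side in hda1Δ, at very low levels. Its hda1Δ levels were 2.59 FPKM in raffinose, 0.953, 0.532 and 0.433 in galactose, 3.83 and 2.69 in glucose, then 0.360 and 0.946 in the second pulse. Wild-type levels were 0.509 in raffinose, 0.475, 0.329 and 0.140 in galactose, 0.901 and 0.735 in glucose, then 0.118 and 0.296 in the second pulse. The hda1Δ library was above its wild-type partner at each of the 8 stages, although the groups overlapped across stages. PHO84 was 2.38-fold (1.76 to 3.09) in raffinose and 2.54-fold (1.91 to 3.25) and 2.13-fold (1.56 to 2.78) in glucose, past the rule at these 3 stages. In galactose the folds were 1.15 to 1.501, within the rule. Adding 1 FPKM understates changes at this level, and with 5 FPKM added no stage passed. Without it the ratio was 5.08 (2.64 to 12.3) in raffinose and 4.25 (2.60 to 7.12) and 3.66 (2.06 to 6.85) in glucose. In galactose it was 1.62 to 3.19, with an interval above 1 at 30 min of the second pulse (1.12 to 10.9). At the other 4 galactose stages the interval included 1, as at 120 min of the first pulse, where wild type had 3 fragments (3.08, 0.856 to 18.8), so a difference was not detectable there at this depth. The fragments behind PHO84 numbered 7 to 91 per hda1Δ library and 2 to 21 per wild-type library. Its mean of 0.990 FPKM missed the minimum of 1 set for tested ORFs, so it is left out of the counts over tested members below.

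SPL2, whose small product lowers low-affinity phosphate transport (YHR136C, chrVIII:374654-375100), passed the rule of size at the 3 stages of the first galactose pulse. In hda1Δ it stood at 2.002 FPKM in raffinose, 3.26, 7.78 and 14.0 in galactose, 3.39 and 2.50 in glucose, then 7.90 and 9.29 in the second pulse. In wild type it stood at 3.56 in raffinose, 1.06, 3.52 and 2.83 in galactose, 3.03 and 1.93 in glucose, then 5.14 and 8.15 in the second pulse. In hda1Δ the level was highest at 120 min of the first pulse (Gal-120), in wild type it was highest at Gal-30-1, and the groups overlapped. Folds between genotypes were 2.07 (1.15 to 3.54), 1.94 (1.23 to 2.99) and 3.92 (2.48 to 5.99) in the first pulse, 0.659 (0.383 to 1.198) in raffinose, and 1.09 to 1.45 at the other 4 stages. With 5 FPKM added SPL2 passed at Gal-120 alone. Whether the first pulse differs from the other stages was not tested. The message is short and low, at 12 to 78 fragments per hda1Δ library and 6 to 34 per wild-type library, and the hda1Δ library with its highest level, Gal-120, is the library with the highest share of RNA genes, whose part in the value was not tested.

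None of the other 6 members passed 1.7-fold in either direction at any stage with 1 FPKM added. PHO5, the repressible acid phosphatase of the periplasm (YBR093C, chrII:429548-430951), had a lowest, median and highest level of 9.09, 11.2 and 15.0 FPKM in hda1Δ and of 6.40, 9.22 and 9.94 FPKM in wild type. The ranges overlapped between 9.09 and 9.94. PHO5 came nearest to the rule, at 1.54-fold (1.27 to 1.88) in raffinose, 1.53-fold at 15 min of galactose and 1.62-fold (1.31 to 2.01) at 120 min of glucose, whereas the second pulse gave 0.951- and 1.02-fold. With no FPKM added, the ratio at 120 min of glucose was 1.72 (1.35 to 2.20), just past the rule. In wild type it stayed between 6.40 and 9.94 FPKM at every stage, and no shift between stages reached 2-fold in either genotype.

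PHO8, the vacuolar alkaline phosphatase (YDR481C, chrIV:1418550-1420250), was slightly above wild type at all 8 stages, at 1.13- to 1.33-fold, as were 7.69% of tested ORFs at any size of fold. Its lowest, median and highest levels were 66.6, 78.6 and 115 FPKM in hda1Δ and 57.9, 61.3 and 96.9 FPKM in wild type. Every interval excluded 1, from 1.04 to 1.22 in raffinose to 1.24 to 1.43 at 15 min of galactose, but they hold counting error only. PHO81, the inhibitor of the Pho80 and Pho85 kinase (YGR233C, chrVII:954674-958210), had levels of 9.55, 15.4 and 19.6 FPKM in hda1Δ and 11.7, 15.4 and 17.3 FPKM in wild type, with overlapping ranges. Its fold was 0.727 (0.650 to 0.812) at 120 min of the first pulse and 0.717 (0.637 to 0.806) at 15 min of the second, and 0.829 to 1.22 elsewhere, with 0.829 at the last stage. These are the 3 hda1Δ libraries with the largest share of RNA genes, at 15.7, 14.7 and 13.9%, against 10.2, 11.7 and 14.0% in wild type. The part of that share in the lower values was not tested.

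The VTC genes encode the vacuolar transporter chaperone, which makes polyphosphate. VTC4 (YJL012C, chrX:411234-413399) is the polymerase subunit, and had levels of 45.8, 74.0 and 104 FPKM (lowest, median and highest) in hda1Δ and 44.3, 73.1 and 92.8 FPKM in wild type. It was 0.690-fold (0.642 to 0.740) at 120 min of the first pulse and 0.946- to 1.12-fold at the other 7 stages. The value at 120 min rests on the hda1Δ library with 15.7% RNA genes, where the median log2 ratio of all tested ORFs was −0.14, and the part of that library was not tested. VTC1 (YER072W, chrV:302806-303195), a small membrane subunit, ran from 92.1 to 157 FPKM in hda1Δ and from 88.7 to 136 in wild type, with folds of 0.959 to 1.34. VTC3 (YPL019C, chrXVI:514511-517018), a regulatory subunit, ran from 23.5 to 44.1 FPKM in hda1Δ and from 22.9 to 35.3 in wild type, with folds of 0.954 to 1.41. The subunit messages did not keep a fixed ratio. VTC3 per VTC4 was 0.402 to 0.502 in hda1Δ and 0.335 to 0.397 in wild type over the first 6 stages, and 0.701 to 0.785 in hda1Δ and 0.695 to 0.797 in wild type in the second galactose pulse. Before the second pulse the ranges came close, at 0.402 in hda1Δ raffinose and 0.397 in wild type at 30 min of galactose. VTC3 in that hda1Δ library had a counting interval of 32.2 to 36.3 FPKM around 34.2, so the gap lies within counting error. How many other gene pairs show such a gap was not counted. Within the second pulse the ranges overlapped. VTC1 per VTC4 was also highest in the second pulse, at 2.11 to 2.36 in hda1Δ and 1.84 to 2.24 in wild type.

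**Figure D3:**
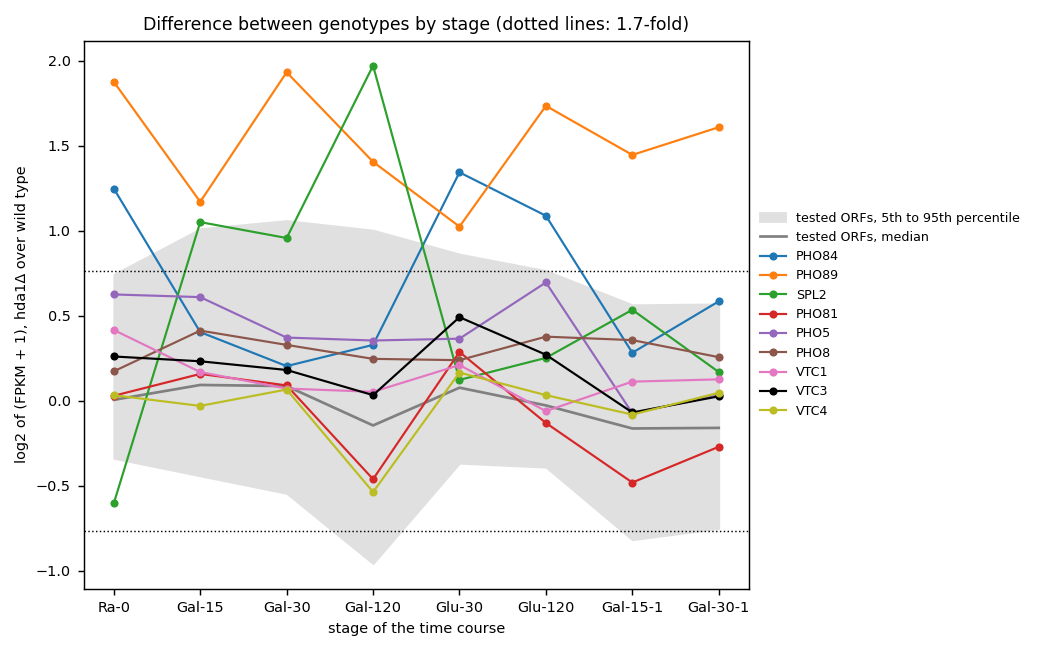
log2 of (FPKM + 1) in hda1Δ over wild type (y axis) at each stage (x axis) for the 9 genes, with the median (grey line) and the 5th to 95th percentile (grey band) of tested ORFs and dotted lines at 1.7-fold. PHO89 stays above the upper line throughout, PHO84 rises above it in raffinose and glucose, and SPL2 in the first galactose pulse. The other 6 genes stay between the lines.

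Counted by stage over the 8 tested members, PHO89 alone was higher in raffinose, where 4.9% of tested ORFs were. PHO89 and SPL2 were higher at 15, 30 and 120 min of galactose, against 7.84, 9.35 and 8.06% of ORFs. PHO89 alone was higher in glucose (5.95 and 5.02% of ORFs) and in the second pulse (3.52 and 3.32%). No member was lower at any stage, whereas 1.11% of tested ORFs were in raffinose, 1.7, 2.41 and 9.79% in the first pulse, 1.39 and 1.26% in glucose, then 5.92 and 4.69% in the second pulse. Over all 9 members, 3 were higher at 3 or more stages (7.33% of tested ORFs) and 6 never passed the rule, a share near that of tested ORFs (67.4%). The 3 include PHO84, which missed the minimum level that all tested ORFs had to reach. The median log2 ratio of the 9 members was 0.26 in raffinose, 0.40, 0.20 and 0.25 in the first pulse, 0.29 and 0.27 in glucose, then 0.11 and 0.13 in the second pulse. Without PHO84, the 8 tested members gave 0.22, then 0.32, 0.26 and 0.15, then 0.26 and 0.26, then 0.02 and 0.09. For all tested ORFs the medians at these stages were 0.01, then 0.09, 0.09 and −0.14, then 0.08 and −0.03, then −0.16 and −0.16.

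Between stages PHO84, PHO89, SPL2 and VTC4 passed the rule in at least 1 shift of a genotype, and the other 5 members in none. Each shift was read as a fold of FPKM plus 1 over the last stage before the sugar changed, with 2-fold as the rule, and shifts over the same stage share that library. At 30 min of glucose 7 of the 9 members had their highest level in hda1Δ and 5 in wild type, as did 44.6% of tested ORFs in hda1Δ and 34.3% in wild type. Over 120 min of galactose, PHO84 was 3.37-fold (2.51 at the lower bound) and VTC4 2.20-fold in hda1Δ, over the library richest in RNA genes, where 28.6% of tested ORFs were also higher, and PHO89 was 2.37-fold in wild type, where 10.1% were. The median log2 shift of the members was 0.84 in hda1Δ and 0.44 in wild type, against 0.56 and 0.34 for tested ORFs in hda1Δ and wild type. PHO84 was also 2.58-fold in hda1Δ at 120 min of glucose, where 17% of ORFs were higher. It was lower after galactose in hda1Δ, at 0.427- and 0.400-fold at 30 and 120 min of the first pulse (3.33 and 15.3% of ORFs) and 0.368-fold at 15 min of the second (17.5%). In wild type PHO84 stayed too low for any shift to reach 2-fold on this scale. Its highest level was 10.6 times its lowest in hda1Δ and 7.65 times in wild type, and whether the shifts differ between genotypes was not tested.

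In hda1Δ SPL2 was 2.92-fold (1.72 at the lower bound) and 5.01-fold (3.05 at the lower bound) over raffinose at 30 and 120 min of galactose, where 6.22 and 7.45% of ORFs were higher. It was 0.292- and 0.233-fold in glucose over 120 min of galactose, where 5.7 and 9.22% of ORFs were lower. In wild type it was 0.451-fold at 15 min of the first pulse, where 0.833% of ORFs were lower and SPL2 had 6 fragments, and 0.841-fold at 120 min. In the second pulse SPL2 was 2.55- and 2.94-fold in hda1Δ and 2.09- and 3.12-fold in wild type, where 12.8 and 16.8% of ORFs were higher in hda1Δ and 14.4 and 20.4% in wild type. PHO89 was 1.699- and 2.03-fold in hda1Δ and 2.07- and 2.21-fold in wild type at these stages. PHO5, PHO8, PHO81, VTC1 and VTC3 passed 2-fold in no shift of either genotype.

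Over the 16 libraries, which share time course and genotype and so are not independent points, the log2 levels of the members did not follow a single pattern. Of the 36 pairs, 10 had a Pearson r above 0.5 and 2 below −0.5, with a median of 0.30. PHO81 and VTC4 were most alike (r = 0.88), followed by PHO89 and PHO8 (0.86) and PHO84 and VTC1 (0.82). SPL2 was at −0.77 with both PHO81 and VTC4. These values are pooled over both genotypes, and a pooled r can rest partly on the difference between them. Within hda1Δ and wild type, r was 0.97 and 0.76 for PHO81 and VTC4, and 0.82 and 0.88 for PHO89 and PHO8. For PHO84 and VTC1 it was 0.83 in hda1Δ and 0.97 in wild type. SPL2 was at −0.82 and −0.71 with PHO81, and at −0.84 and −0.75 with VTC4, in hda1Δ and wild type. Among 4967 well expressed ORFs outside the lists, those most like PHO84 were COS10, of a subtelomeric membrane protein family (r = 0.90), SMP1, a MADS-box factor (0.89), SFA1, for formaldehyde detoxification (0.87), LSM7, for messenger RNA decay (0.87), and RTS3 (0.86). Those most like the mean of the 9 members were ACA1, a bZIP factor (0.92), GSC2, for cell wall glucan (0.91), YPL088W (0.90), AIF1 (0.89) and PLB1, a phospholipase (0.86). Within the 8 wild-type libraries r of these ORFs with PHO84 ran from 0.59 for SMP1 to 0.97 for LSM7. Their r with the member mean ran from 0.57 for PLB1 to 0.89 for YPL088W, with ACA1 at 0.60. The order within wild type thus differs from the pooled order.

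The wider phosphate pathway was read through 28 further genes in 4 lists. With 1 FPKM added, the 7 regulators, 4 transport genes and 6 phosphatase and polyphosphate genes had none past 1.7-fold in either direction at any stage. PHO88, of the transport list, came nearest on the lower side, at 0.5885-fold at Gal-120 against a bound of 0.5882. It was at 189 FPKM in hda1Δ and 321 in wild type there, so the call turned on the added 1 FPKM. That hda1Δ library had 15.7% RNA genes, whose part in the value was not tested. The activator gene PHO4 stood at 12.7, 22.5 and 35.4 FPKM (lowest, median and highest) in hda1Δ and 15.6, 22.2 and 35.5 FPKM in wild type, ranges that overlap almost wholly. Its folds were 0.754 to 1.04. Those of its partner PHO2 were 0.871 to 1.42, of the cyclin gene PHO80 0.863 to 1.18, and of the kinase gene PHO85 0.837 to 1.25. In the list of other Pho4 targets 4 of 10 tested genes were higher in raffinose, 4, 4 and 3 in the first pulse, 4 and 3 in glucose, then 2 and 0 in the second pulse. None of them was lower. The shares of all tested ORFs higher at these stages were 4.9, then 7.84, 9.35 and 8.06, then 5.95 and 5.02, then 3.52 and 3.32%. PHO11 and PHO12 share most of their sequence and are not separate observations, yet each was counted in raffinose and at both glucose stages.

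**Figure D4:**
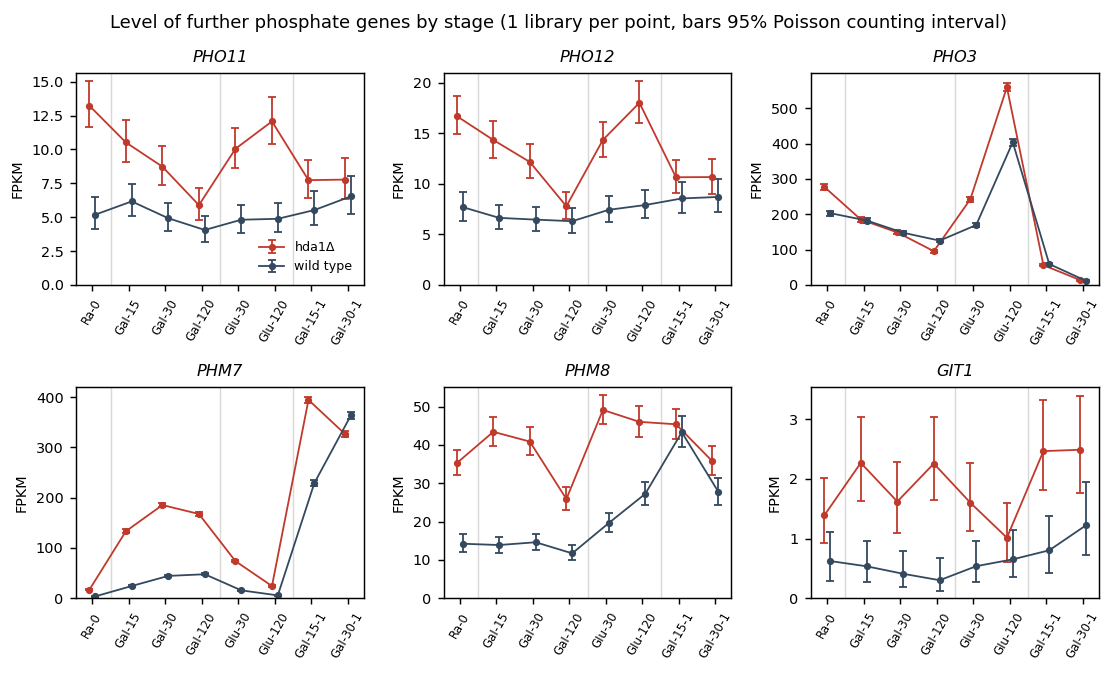
FPKM (y axis, from 0) of PHO11, PHO12, PHO3, PHM7, PHM8 and GIT1 at the 8 stages (x axis) in hda1Δ (red) and wild type (dark blue), 1 library per point, with 95% Poisson intervals for counting error only. PHM7 stood at 394 FPKM in hda1Δ and 229 in wild type at Gal-15-1, then at 326 in hda1Δ and 363 in wild type at Gal-30-1. PHO3 is the only panel of the 6 whose gene passed 1.7-fold at no stage.

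The 5 of these targets that passed at 3 or more stages, as 7.33% of tested ORFs did, were PHM7, PHM8, PHO12, GIT1 and PHO11. PHM7, a membrane protein gene of unknown function (YOL084W), was at 16.5 FPKM in raffinose, 133, 185 and 167 in the first pulse, 73.6 and 24.1 in glucose, then 394 and 326 in the second pulse in hda1Δ. In wild type it was at 3.46 in raffinose, 24.1, 44.2 and 47.6 in the first pulse, 15.5 and 5.48 in glucose, then 229 and 363 in the second pulse. In both genotypes PHM7 thus stood higher at every galactose stage than in raffinose or glucose. Sugar and elapsed time change together in this course and cannot be told apart. PHM7 was higher in hda1Δ at 7 stages, with a largest fold of 5.34 (4.99 to 5.72) at 15 min of galactose and 0.898 at the last stage. PHM8, for a phosphatase of lysophosphatidic acid, was 2.12- to 2.99-fold at the first 5 stages, then 1.67-, 1.05- and 1.28-fold. In the promoter window searched, PHO11 and PHO12 each held 1 CACGTG and 1 CACGTT. PHM8 held 1 CACGTT and no CACGTG, and PHM7 and GIT1 held neither.

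GIT1, for a permease of glycerophosphoinositol, was low, at 1.01 to 2.49 FPKM in hda1Δ and 0.301 to 1.22 in wild type, and was 1.22- to 2.50-fold. PHO11 and PHO12 encode acid phosphatases close to PHO5. PHO12 was at 7.78, 13.2 and 18.0 FPKM (lowest, median and highest) in hda1Δ and 6.30, 7.56 and 8.70 FPKM in wild type, and was higher at 5 stages, up to 2.14-fold at 120 min of glucose. PHO11 was higher at 3, up to 2.30-fold in raffinose. In both genes 75% of read-length windows recur in the genome, so reads may be split between them and their values are uncertain, whereas no window of the 9 members recurs.

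PHO3, for another acid phosphatase, lies 446 bases from PHO5 on the same strand and moved on a much larger scale. It was at 278 FPKM in raffinose, 559 at 120 min of glucose and 13.7 at the end of the second pulse in hda1Δ, and at 203, 404 and 11.7 FPKM at these stages in wild type. PHO3 thus fell to 0.0263-fold in hda1Δ and 0.0313-fold in wild type between the last glucose and the last galactose stage. PHO5 was 0.934-fold in hda1Δ and 1.48-fold in wild type over the same shift. As a share of PHO3, PHO5 was 1.96% in hda1Δ and 1.58% in wild type at 120 min of glucose, and 74.2% in hda1Δ and 85.3% in wild type at the last stage. Between genotypes PHO3 stayed at 0.763- to 1.43-fold.

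PHO89 and PHO84 lie 14.7 and 24.0 kb from a chromosome end, whereas the other 7 members lie at least 112 kb away. Of the 37 phosphate genes examined, 5 lie within 25 kb of an end, a distance chosen with these values known. These are PHO84, PHO89, PHO11, PHO12 and GIT1, and all 5 passed on the higher side at 3 stages or more. PHO11 and PHO12 share most of their sequence and are not separate observations, and PHO84 missed the minimum for tested ORFs. Of the 32 others, 3 did (9.38%), namely SPL2, PHM7 and PHM8. Among all tested ORFs, 86 of 281 within 25 kb passed so (30.6%) and 1 passed on the lower side, against 345 (6.16%) higher and 116 lower of 5600 farther away. By stage, 17.8 to 32.0% of the 281 were higher.

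**Figure D5:**
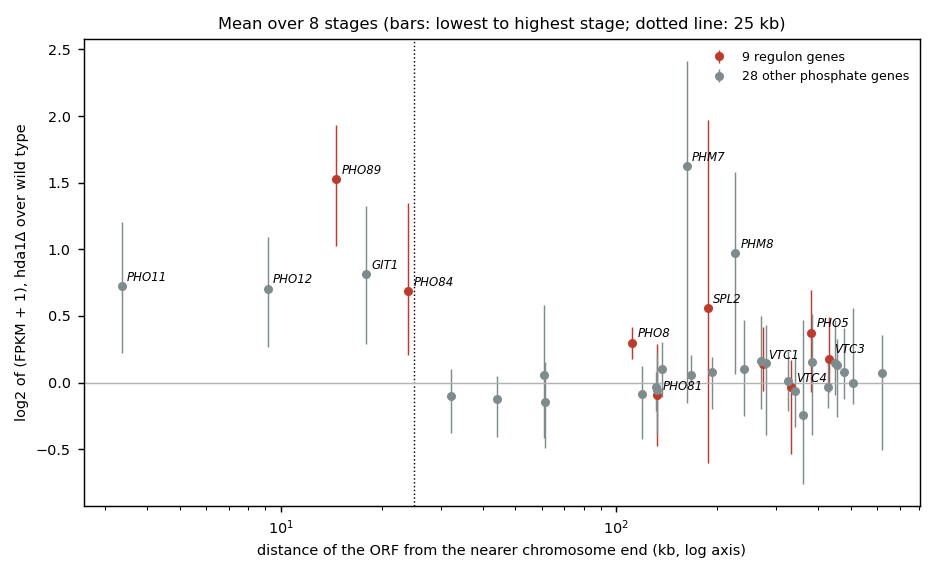
Mean over 8 stages of the log2 of (FPKM + 1), hda1Δ over wild type (y axis), against the distance of the ORF from the nearer chromosome end in kb (x axis, log scale), for the 9 regulon genes (red) and 28 other phosphate genes (grey). Bars run from the lowest to the highest stage, and the dotted line marks 25 kb. The 5 genes left of the line have positive values at every stage.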

How the data were processed

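The authors deposited a StringTie annotation file for every library, 16 in all. Its attribute field lists the coverage, FPKM and TPM of each transcript, and FPKM was used here. Per the labels, RNA was extracted with hot phenol and sequenced with a directional mRNA kit. The submitters' processing notes name FastQC 0.11.5, HISAT2 2.0.4, SAMtools, StringTie 1.3.0, bedtools 2.26.0 and genome build R64, and the annotation is Ensembl release 86. The file headers show no strand option, so whether reads of the opposite strand add to a gene's level, PHO84 included, is not known. Libraries whose galactose label ends in an added 1 were read as the second pulse.

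Coverage times length gave aligned bases, and 202 bases were counted as 1 fragment, since values of the lowest genes pile up at 101 and 202 bases. Whether reads were paired is not given in the sources used here. Depth was 9.37 to 13.8 M fragments per library. ORFs whose 16-library mean reached 1 FPKM were tested for size of fold, on FPKM plus 1, at 1.7-fold between genotypes and 2-fold between stages. Of 6685 nuclear ORFs 5881 passed, among them 8 of the 9 members. Intervals are 95% and cover counting error only. Promoters came from the RefSeq R64 genome, whose coordinates equal those of the files for all members.

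The members and lists were chosen with earlier results of these data known. Genes named are the members, HDA1, GAL1, the 4 core regulators, and listed genes past 1.7-fold in 1 direction at 3 or more stages. Also named are the 5 ORFs most like PHO84 and the 5 most like the member mean. PHO3, CWC21, YML122C and PCA1 were named as neighbours of members. PHO88 and the α-specific genes were named to show single values behind a count or a sum. Alternatives were pseudocounts of 0.1 and 5, TPM, centring on the ORF median, ORF-sum scaling, other fold rules, calls whose interval excludes 1, no minimum, and stages left out. The procedure was tested on counts simulated from the wild-type Gal-30 library with counting error alone, which cannot show how cultures or libraries vary. Scripts ran in Python 3.11.15 with SciPy 1.17.1, pandas 2.3.3, matplotlib 3.10.9 and NumPy 2.4.6.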

Additional observations from a re-analysis of the deposited data

How the results depend on the processing

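Counts of member calls at each stage, summed over the stages of a phase and taken over the 8 tested members, depended on how low values were handled and, between stages, also on the fold rule and centring. In raffinose 1 was higher and none lower, against 2 higher without a minimum level, which brings in PHO84, and 1 lower, SPL2, with a pseudocount of 0.1. In the first galactose pulse 6 were higher, against 3 with a pseudocount of 5. In glucose 2 were higher, against 0 with a pseudocount of 5 and 4 without a minimum. A pseudocount of 0.1 gave 3, with PHO5 at 120 min added. In the second pulse 2 were higher, against 1 when the 15 min stage was left out, since fewer stages are then counted. Between stages, hda1Δ had 6 higher and 2 lower, against 2 higher with a pseudocount of 5, 1 higher at 3-fold, and 5 lower without a minimum. Wild type had 5 higher and 1 lower. A pseudocount of 5 gave 0 higher and 0 lower, 3-fold gave 1 and 0, centring gave 2 higher and 3 lower, and a pseudocount of 0.1 gave 2 lower. With CACGTG alone 8 members had a match, and with CACGTT alone, an alternative chosen after seeing the data, 6. Of the single ratios of members under other settings, 328 stayed within their counting interval, 32 moved outside it and none that passed the rule changed direction. PHO84 in raffinose was 2.14 log2 with a pseudocount of 0.1 and 0.46 with 5. No paired analysis was possible because no result here comes from a test: each genotype is a single strain followed through 1 time course, and libraries that share a stage are not replicates. Depth limits PHO84, with 2 to 91 fragments, and SPL2, with 6 to 78.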
